A study of Mus musculus with 17 samples.

Results

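Gm5345, a processed pseudogene on mouse chromosome 8, had almost no reads in 6 of 17 liver libraries and a clear signal in the other 11, and it is described here together with 9 genes of the same chromosome. The 10 genes were Gm5345, the long non-coding RNA gene Gm16348, and the protein-coding genes Enpp6, Aga, Asah1, Fgl1, Mtus1, Pcm1, Vps37a and Cnot7, out of 24676 genes in the deposited table and 1301 on chromosome 8. They were picked by name as lying near Gm5345 or as sharing its pattern over the libraries. The levels per library were among the values that chose them, so the levels and group differences of Gm5345, Gm16348, Enpp6, Aga and Asah1 are given as a description. The choice had no numerical threshold, and all 10 passed the filter on low values.

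Messenger RNA was measured by sequencing in livers of 11-week-old male mice of mixed strain, all of which, controls included, carried floxed Gata4 alleles (Gata4 fl/fl), Gata4 being a transcription factor gene. The 4 groups were Gata4LKO with GW3965 (5 libraries), Gata4LKO with vehicle (4), control with GW3965 (4) and control with vehicle (4). Gata4LKO mice received AAV8-Tbg-Cre, an adeno-associated virus that expresses Cre from the hepatocyte promoter Tbg, at 10 weeks of age, and controls received an empty AAV8, so that Cre and the loss of Gata4 cannot be told apart. GW3965, an agonist of the liver X receptors, was gavaged at 40 mg/kg in canola oil, first 17 h and again 8 h before the mice were killed, the vehicle was DMSO in the same oil, and all mice were fasted for 4 h. Groups follow the sample titles. The treatment label contradicted the title in the 8 libraries of the Gata4LKO vehicle and control GW3965 groups. By that label all Gata4LKO libraries would be GW3965 and all control libraries vehicle, and genotype and treatment could not be told apart. The comparisons of treatments and the interaction thus rest on the titles. The age in the series text differed from that in the labels. Whether every library had its own mouse is not stated, so p-values measure the spread between these libraries.

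Libraries held 11.8 to 22.05 M reads in genes. Mitochondrially encoded genes took 15.6 to 32.6% of the values in 5 libraries (Gata4LKO GW3965 replicates 17 and 18, control GW3965 replicates 10 and 13, control vehicle replicate 1) and 6.06 to 7.26% in the other 12. Gata4 averaged 219 ± 41.2 normalized counts with GW3965 and 194 ± 44.2 with vehicle in libraries labelled Gata4LKO (SD, n = 5 and 4), against 221 ± 44.1 and 153 ± 27.3 in control libraries (n = 4 each). The counts of the targeted gene thus did not show the loss that the labels name, but they cannot decide whether hepatocytes lost it. A count over the whole gene also takes in exons outside the floxed part, which the labels do not specify. Cre was expressed from a hepatocyte promoter, and the RNA also came from other cells. Summed markers were 2810 to 5021 normalized counts for sinusoidal endothelium and 2968 to 6056 for stellate cells and fibroblasts. Gata4 reads of such cells cannot be told apart from those of hepatocytes. The 6 hepatocyte markers examined, albumin among them, were the highest of the 11 marker lists in all 4 groups by summed level. The summed markers of adipose tissue and of kidney each stayed at or below 2.23 normalized counts. Those of skeletal muscle had 3.16 to 43.0, and Cela1, the only 1 of 3 pancreas markers among the genes counted, had 143 to 385. In bulk liver RNA, fewer cells of a type and less RNA per cell cannot be told apart.

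A processed pseudogene is a copy of a messenger RNA that was written back into the genome, usually without the parent gene's promoter and introns. Its transcript, like a long non-coding RNA, does not encode a functional protein. The protein-coding neighbours have well-described roles: acid ceramidase (Asah1) and aspartylglucosaminidase (Aga) are lysosomal enzymes, and Fgl1 encodes a protein secreted by hepatocytes.

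Positions are those of GENCODE M21 on the mouse build mm10 (GRCm38). Gm5345 (ENSMUSG00000098050) lies on the minus strand at chr8:40853828-40855027, between genes: the nearest annotated gene at lower coordinates, Adam39, is 26791 bases away and the nearest at higher coordinates, Gm26584, 7368 bases. Gm16348 (ENSMUSG00000085445) lies on the plus strand at chr8:41218139-41220894, between Fgl1, 2983 bases away on the opposite strand, and Pcm1, 18858 bases away. Its distance to Gm5345 is 363 kb. Cnot7 (chr8:40492540-40515847) and Vps37a (chr8:40511783-40551134) lie 338 and 303 kb below Gm5345, and overlap each other by 4065 bases on opposite strands. Mtus1 (chr8:40990914-41133726), Fgl1 (chr8:41191434-41215156), Pcm1 (chr8:41239752-41332344) and Asah1 (chr8:41340197-41374773) lie 136 to 485 kb above it. Enpp6 (chr8:46986887-47096762) is 6.13 Mb and Aga (chr8:53511727-53523421) 12.7 Mb above it. How strand was handled in counting is not given in the sources, so reads in the shared stretch of Cnot7 and Vps37a, in the 17729 bases that Cnot7 shares with Zdhhc2, and in the antisense genes within Mtus1 and Enpp6 cannot be assigned with certainty.

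The annotated Gm5345 transcript of 1014 bases matched the coding messenger RNA of Gapdh, the glycolytic enzyme glyceraldehyde-3-phosphate dehydrogenase, over 100% of its length at 90.65% identity, with 76 mismatches and 19 gap bases. The same stretch of 120 bases is shown for both genes. It was picked as the gap-free stretch of that length, within a single exon of each, with the most mismatches. It therefore shows where the pseudogene differs from Gapdh and not how closely the 2 match elsewhere. Capitals mark the 13 bases that differ. The Gm5345 stretch is the minus strand of chr8:40853914-40854033 (exon 2), and the Gapdh stretch the minus strand of chr6:125162231-125162350 (exon 6), both mm10, read from the GENCODE M21 transcripts.
Gm5345: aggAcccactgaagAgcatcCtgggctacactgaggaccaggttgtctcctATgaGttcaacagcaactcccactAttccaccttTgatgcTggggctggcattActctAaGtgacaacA
Gapdh: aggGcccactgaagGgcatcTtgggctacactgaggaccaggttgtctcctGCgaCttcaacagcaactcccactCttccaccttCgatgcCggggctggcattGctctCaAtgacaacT

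The longest run of identical bases between the transcripts was 62. In all, 32 annotated genes matched the Gm5345 transcript at 90% identity or more over at least 50% of its length, 24 of them were in the table and 4 passed the filter. Reads matching more than 1 of these copies may have been split or dropped in the authors' counting, which the sources used here do not say. To that extent the counts of Gm5345, of Gapdh and of the other copies are uncertain. The Gapdh values below may therefore not give the level of its messenger RNA or how that level differed. Gapdh had 38.5 to 168 normalized counts over the 17 libraries, with a median of 101, and the 3 other copies that passed the filter, Gm3839, Gm3222 and Gm8756, had medians of 44.9, 7.57 and 7.35. Gapdh differed by -0.05 ± 0.39 on the log2 scale between libraries labelled Gata4LKO and control with vehicle, and by -0.14 ± 0.37 between GW3965 and vehicle in those labelled Gata4LKO.

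Gm16348 had no such copy: its best match elsewhere, A930016O22Rik, covered 6.62% of it at 79.38% identity. The first 99 bases, which both annotated transcripts (974 and 2385 bases) share, are shown to identify it, with no base in capitals. They are the plus strand of chr8:41218140-41218238 (mm10, GENCODE M21).
Gm16348: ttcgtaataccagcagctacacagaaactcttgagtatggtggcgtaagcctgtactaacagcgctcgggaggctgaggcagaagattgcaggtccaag

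**Figure D1:**
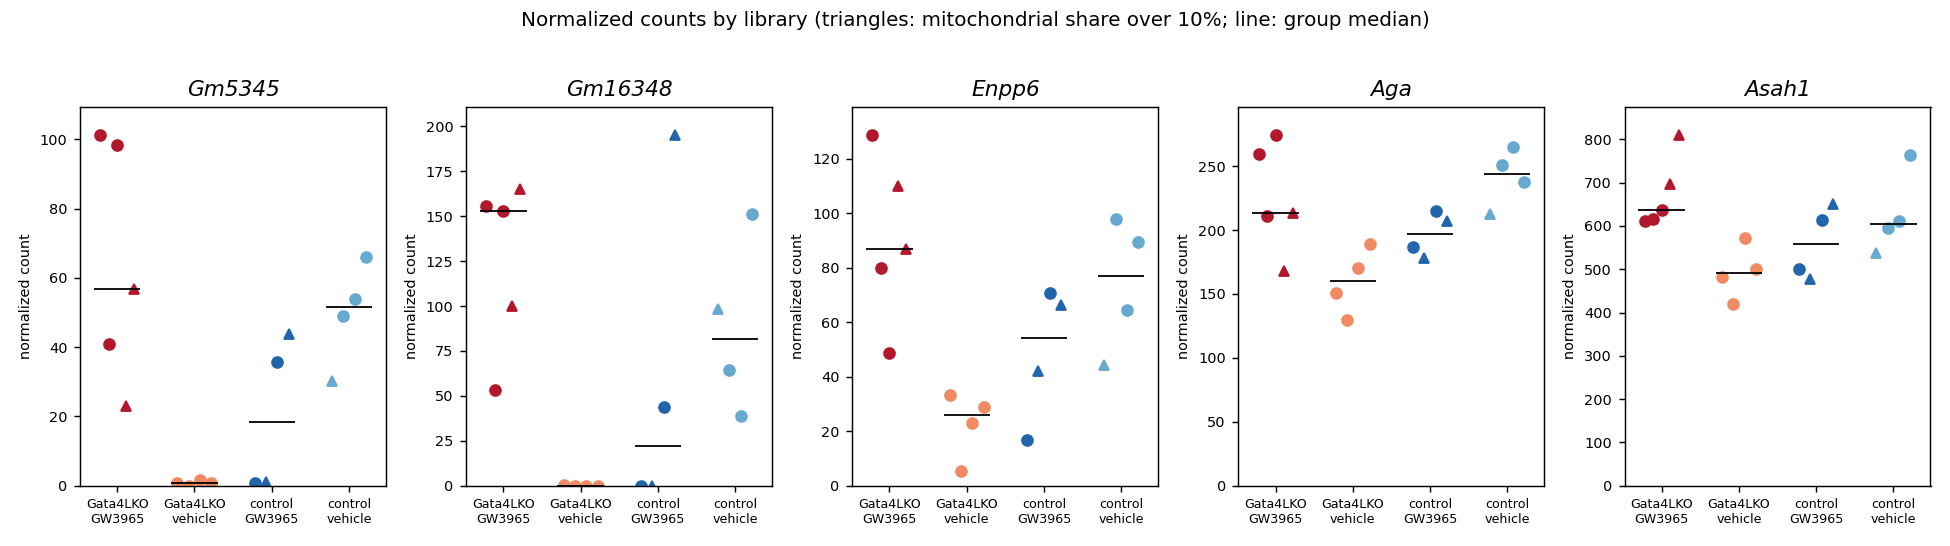
Normalized counts (y axes, each from 0) of Gm5345, Gm16348, Enpp6, Aga and Asah1 in the 4 groups (x axes). Each point is 1 library, triangles are libraries with over 10% of their values in mitochondrially encoded genes, and lines are group medians. Gm5345 was at or below 1.64 in all 4 Gata4LKO vehicle libraries and in 2 of 4 control GW3965 libraries, and at or above 23.1 in all others.

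Values below are the authors' normalized counts, the reads of a gene divided by a size factor of the library, and libraries are named by the number in their title. Gm5345 had 101, 40.9, 98.4, 23.1 and 56.9 normalized counts in Gata4LKO GW3965 libraries 14 to 18, and 0.667, 0, 1.64 and 0.876 in Gata4LKO vehicle libraries 5 to 8. It had 0.833, 1.00, 35.8 and 43.8 in control GW3965 libraries 9, 10, 12 and 13, and 30.3, 49.0, 53.9 and 66.0 in control vehicle libraries 1 to 4. All 4 Gata4LKO vehicle libraries and control GW3965 libraries 9 and 10 were thus low, with 0 to 2 reads each, and no library lay between 1.64 and 23.1. The low libraries carry both genotype labels. They carry both treatments too, by the titles as by the treatment label. All of them are among the libraries whose treatment label contradicts the title. Their numbers, 5 to 10, form an unbroken run in the titles that crosses from the Gata4LKO vehicle group into the control GW3965 group. What the order of the numbers stands for is not given, and its part was not tested. Each group is itself a run of numbers, so differences between groups cannot be told apart from anything that follows that order. Over the Gata4LKO vehicle libraries Gm5345 had 4 reads, against 193 over the control vehicle libraries, a ratio of 0.0163 after scaling (exact 95% interval 0.00439 to 0.0424, counting error only).

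Gm16348 followed the same division. It had 155, 53.1, 153, 100.2 and 165 normalized counts in Gata4LKO GW3965 libraries 14 to 18, and 0.667, 0, 0 and 0 in Gata4LKO vehicle libraries 5 to 8. It had 0, 0, 43.7 and 195 in control GW3965 libraries 9, 10, 12 and 13, and 98.5, 64.6, 38.8 and 151 in control vehicle libraries 1 to 4. A single read, in Gata4LKO vehicle library 5, was counted over the 6 libraries that were low in Gm5345, and no other library was below 38.8. A count of 0 allows up to 3 reads, or 2.46 to 3.16 normalized counts in Gata4LKO vehicle libraries 6 to 8 and 2.50 and 3.00 in control GW3965 libraries 9 and 10. The ratio of the Gata4LKO vehicle libraries (1 read) to the control vehicle libraries (333 reads) was 0.00236 after scaling (exact 95% interval 5.95e-05 to 0.0132, counting error only).

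Enpp6 encodes a choline-specific glycerophosphodiesterase of the ectonucleotide pyrophosphatase/phosphodiesterase family. It had 129, 80.1, 48.7, 109.8 and 87.1 normalized counts in Gata4LKO GW3965 libraries 14 to 18, and 33.4, 5.26, 23.0 and 28.9 in Gata4LKO vehicle libraries 5 to 8. It had 16.7, 42.0, 70.8 and 66.4 in control GW3965 libraries 9, 10, 12 and 13, and 44.2, 98.0, 64.3 and 89.3 in control vehicle libraries 1 to 4. The 6 libraries lowest in Gm5345 were the 6 lowest in Enpp6 as well, but here there was no gap: control GW3965 library 10 had 42.0 and control vehicle library 1 had 44.2. Enpp6 RNA was detected in all 17 libraries, with 5 reads in the lowest, Gata4LKO vehicle library 6.

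Aga, the lysosomal enzyme that cleaves the bond between asparagine and sugar in glycoproteins, had 259, 211, 274, 168 and 213 normalized counts in Gata4LKO GW3965 libraries 14 to 18, and 151, 129, 169.9 and 189 in Gata4LKO vehicle libraries 5 to 8. It had 187, 178, 215 and 207 in control GW3965 libraries 9, 10, 12 and 13, and 212, 251, 265 and 238 in control vehicle libraries 1 to 4. Of the 6 libraries low in Gm5345, 5 were among the 6 lowest in Aga. The other of the 6 lowest was Gata4LKO GW3965 library 17, which had 168 and the largest mitochondrial share, 32.6%. The range over all libraries was 2.12-fold, narrower than the 24.5-fold range of Enpp6.

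Asah1, acid ceramidase, which splits ceramide into sphingosine and a fatty acid in the lysosome, had 612, 616, 637, 698 and 810.3 normalized counts in Gata4LKO GW3965 libraries 14 to 18, and 481, 419, 572 and 501 in Gata4LKO vehicle libraries 5 to 8. It had 500.1, 478, 615 and 649.6 in control GW3965 libraries 9, 10, 12 and 13, and 538, 595, 612 and 764 in control vehicle libraries 1 to 4. Again 5 of the 6 libraries low in Gm5345 were among the 6 lowest. Gata4LKO vehicle library 7, with 572, stood above control vehicle library 1, with 538. The Gata4LKO vehicle and control vehicle libraries overlapped in Asah1 and did not overlap in Gm5345, Gm16348, Enpp6 or Aga.

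**Figure D2:**
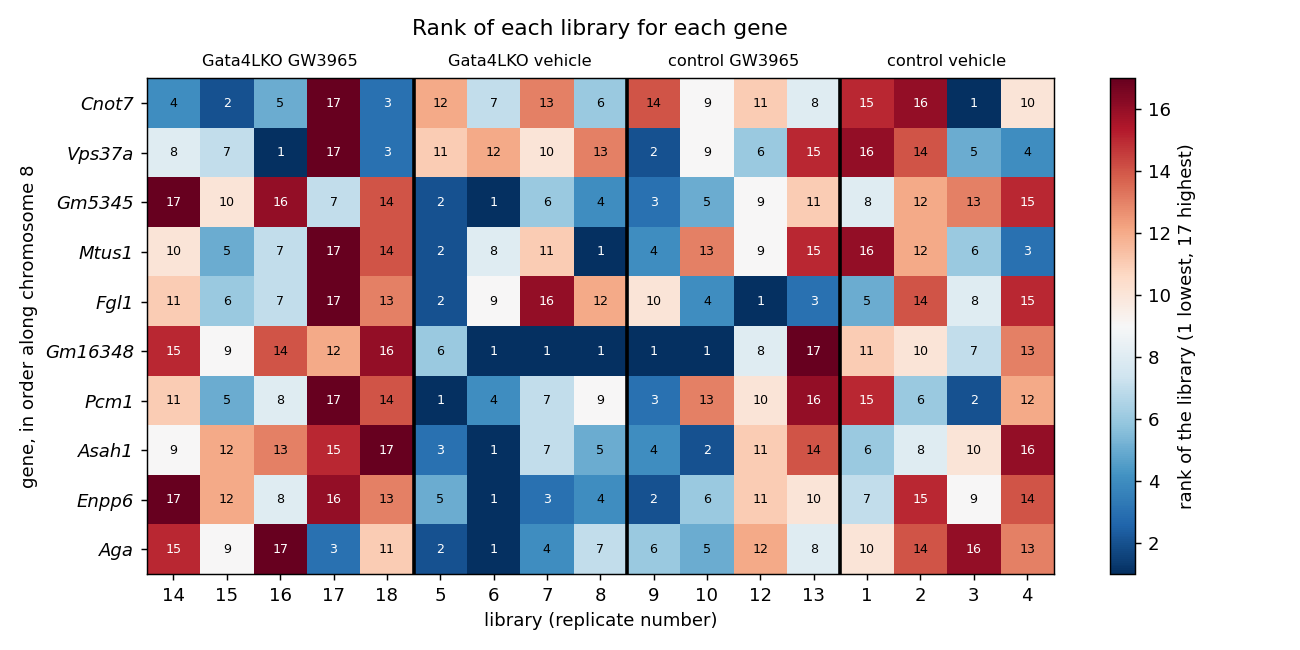
Rank of each library (1 lowest, 17 highest, colour scale) for each of the 10 genes, with genes in their order along chromosome 8 (rows) and libraries by group and number (columns). Ranks of 1 to 6 fill the Gata4LKO vehicle columns and control GW3965 columns 9 and 10 for Gm5345, Gm16348 and Enpp6, but not for the genes between or beside them.

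The remaining 5 genes lie within 385 kb of Gm5345 and did not share its division. Fgl1, fibrinogen-like protein 1, had 3793 to 10840 normalized counts in the Gata4LKO vehicle libraries and 5173 to 10369 in the control vehicle libraries, and 2 of the 6 libraries low in Gm5345 were among its 6 lowest. Its lowest value, 1996, was in control GW3965 library 12 and its highest, 12583, in Gata4LKO GW3965 library 17. Mtus1, which encodes microtubule-associated proteins, ranged from 3841 to 6513, and Pcm1, the scaffold protein of centriolar satellites, from 369.7 to 1016. For Mtus1 and for Pcm1, the 5 libraries of high mitochondrial share held the 5 highest values, and 3 of the 6 libraries low in Gm5345 were among the 6 lowest. Vps37a, a subunit of the ESCRT-I complex that sorts membrane proteins into vesicles, ranged from 1118 to 2066, and Cnot7, a deadenylase of the CCR4-NOT complex that shortens poly(A) tails, from 511 to 659. Of the 6 libraries low in Gm5345, 1 was among the 6 lowest for each of these. Cnot7 varied least of the 10 genes, with a coefficient of variation of 7.59% over the 17 libraries, against 93.5% for Gm5345 and 97.6% for Gm16348.

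**Figure D3:**
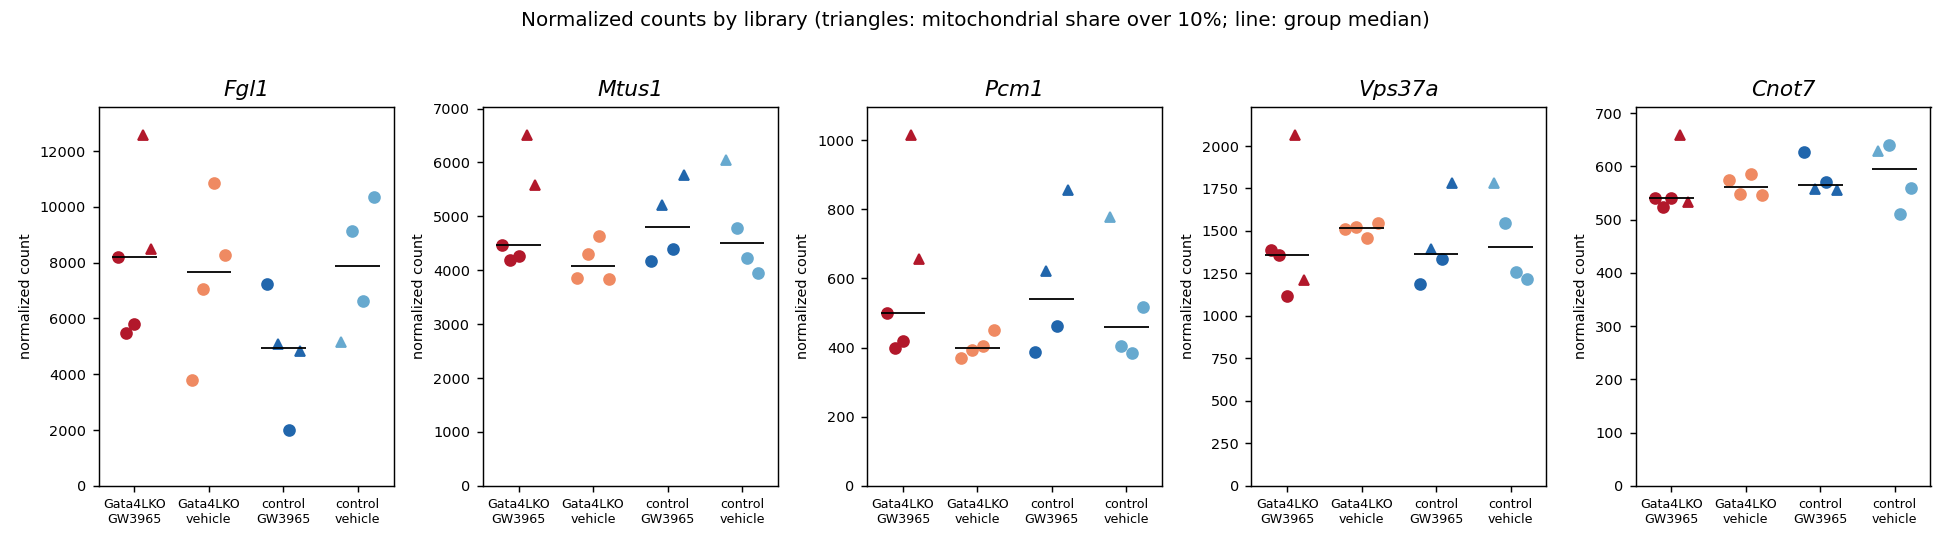
Normalized counts (y axes, each from 0) of Fgl1, Mtus1, Pcm1, Vps37a and Cnot7 in the 4 groups (x axes), 1 point per library, with lines at the group medians. Triangles, the 5 libraries with over 10% of their values in mitochondrially encoded genes, are the 5 highest points for Mtus1 and for Pcm1, and the groups overlap in all 5 genes.

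Differences between groups were fitted with limma on log2(normalized count + 1) over all 13379 genes that passed the filter, and genes with an adjusted p under 0.05 are spoken of as called. Values are log2 differences ± standard error. They compare means of log values, so for libraries near 0 they depend on the constant added. For Gm5345 and Gm16348 they were smaller in size than those of DESeq2 on the recovered reads where the 4 Gata4LKO vehicle libraries, all low, were set against another group, an understatement of the change on this scale. They were larger than those of DESeq2 where the control GW3965 libraries, of which 2 were low and 2 high, were set against another group.

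With vehicle, libraries labelled Gata4LKO were lower than control libraries by the 2 largest differences of the 13379 genes, in Gm16348 and Gm5345. Gm5345 averaged 0.796 ± 0.676 normalized counts in libraries labelled Gata4LKO and 49.8 ± 14.8 in control libraries (SD, n = 4 each), a difference of -4.85 ± 0.86. Gm16348 averaged 0.167 ± 0.334 and 88.3 ± 48.7, a difference of -6.13 ± 1.20. Neither was called (limma adjusted p = 0.0646 and 0.100), and the count of members called was 0, where 0.0149% of all genes tested were called. The standard errors pool the spread of all 4 groups. For Gm5345 the SD of log2 values was 0.58 and 0.47 in the Gata4LKO and control vehicle libraries. It was 2.55 in control GW3965 libraries, which are not compared here but enter the pooled spread. For Gm16348 these SDs were 0.37, 0.83 and 3.88. DESeq2 on the recovered reads called Gm5345, Gm16348 and Enpp6 (adjusted p = 0.00057, 0.00124 and 0.0481), as did the authors' deposited table, with log2 fold changes of -5.93, -8.43 and -1.69, in which 0.434% of genes were below 0.05. Without the 5 libraries of high mitochondrial share, limma called Gm5345 and Gm16348 at -5.07 ± 0.79 and -6.02 ± 0.98 (adjusted p = 0.0351 and 0.045). Over all alternatives the adjusted p ran from 0.00057 to 0.249 for Gm5345, from 0.00124 to 0.367 for Gm16348 and from 0.0481 to 0.709 for Enpp6.

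Enpp6 averaged 22.6 ± 12.3 normalized counts in the libraries labelled Gata4LKO with vehicle and 74.0 ± 24.4 in control libraries with vehicle, a log2 difference of -1.85 ± 0.51. Aga averaged 159.9 ± 25.7 and 241 ± 22.4 (-0.60 ± 0.16), and Asah1 493 ± 63.2 and 627 ± 96.4 (-0.34 ± 0.14). The groups did not overlap for 4 of the 10 genes, all lower in the libraries labelled Gata4LKO, where 3.58% of all genes did not overlap in that direction. Since the members were chosen by these values, nothing is read from that count. For the 5 other genes the log2 differences lay between -0.31 ± 0.29 (Pcm1) and 0.07 ± 0.17 (Vps37a), with limma adjusted p-values of 0.955 to 0.984. The summed level of 11 markers of Kupffer cells and macrophages was 4220 to 5155 normalized counts in the Gata4LKO vehicle libraries and 2429 to 3385 in the control vehicle libraries, and that of 5 lymphocyte markers was 960 to 1646 and 540 to 829. The summed level of the 6 hepatocyte markers was lower, at 1442420 to 1679450 in the Gata4LKO vehicle libraries and 1782190 to 1967760 in the control vehicle libraries. That sum is mostly albumin, with a median of 1.17e+06 over all libraries, against 182617 or less for each other marker, so it does not show the markers as a set. These 3 of 11 marker lists did not overlap between the groups, and their part in the differences was not tested.

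**Figure D4:**
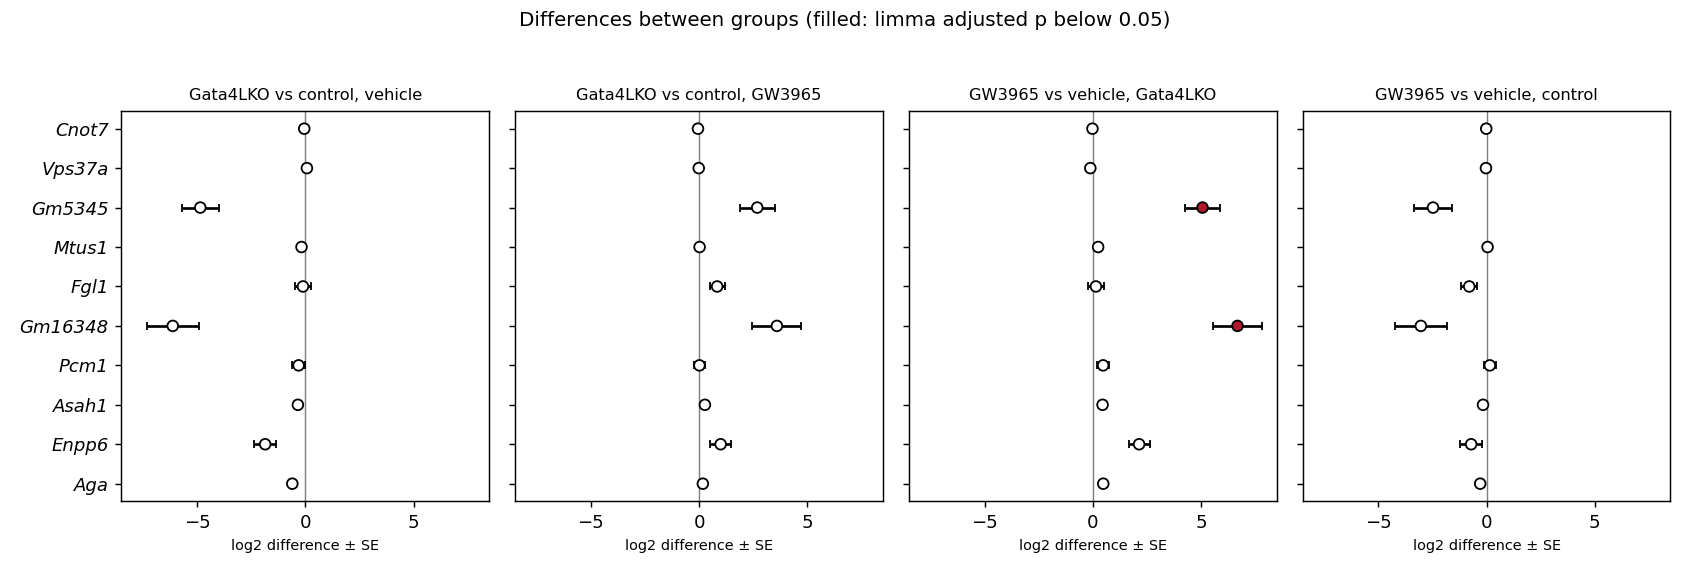
Log2 differences ± SE (x axes) of the 10 genes, in their order along chromosome 8 (rows), in the 4 comparisons of groups. Filled points, Gm5345 and Gm16348 for GW3965 against vehicle in Gata4LKO, have a limma adjusted p below 0.05, and the differences of Gm5345 and Gm16348 change sign between the genotypes and between the treatments.

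Within the libraries labelled Gata4LKO, GW3965 libraries were higher than vehicle libraries for Gm5345, which averaged 64.1 ± 34.8 and 0.796 ± 0.676 normalized counts (SD, n = 5 and 4). The log2 difference was 5.07 ± 0.81 (limma adjusted p = 0.0122), and the ratio of reads was 83.4 after scaling (exact 95% interval 32.3 to 308, counting error only). Gm16348 averaged 125 ± 47.7 and 0.167 ± 0.334, and differed by 6.69 ± 1.14 on the log2 scale (limma adjusted p = 0.0166). The ratio of its reads, 617 against 1, was 603 after scaling (107.9 to 2.39e+04). These 2 of the 10 genes were called, where 0.247% of all genes tested were called and 0.202% called higher. The vehicle libraries are those that also enter the comparison of genotypes with vehicle. The call of Gm5345 was lost without Gata4LKO vehicle library 6 (adjusted p = 0.0619). That of Gm16348 was lost without Gata4LKO GW3965 library 18 (0.0625) and without any of Gata4LKO vehicle libraries 5 to 8 (0.0514 to 0.069). The lowest adjusted p over the alternatives was 2.19e-05 for Gm5345 and 6.23e-05 for Gm16348, both with DESeq2.

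Enpp6 averaged 90.9 ± 30.4 normalized counts in GW3965 libraries and 22.6 ± 12.3 in vehicle libraries labelled Gata4LKO, a log2 difference of 2.14 ± 0.48 (limma adjusted p = 0.0652, and 0.00119 with DESeq2 on recovered reads to 0.223 over the alternatives). Aga averaged 225 ± 42.5 and 159.9 ± 25.7 (0.48 ± 0.15), and Asah1 675 ± 83.2 and 493 ± 63.2 (0.45 ± 0.13). The groups did not overlap for Gm5345, Gm16348, Enpp6 and Asah1, all higher with GW3965, where 2.91% of all genes did not overlap in that direction and 2.34% in the other. The authors' deposited table for this comparison gives adjusted p-values below 0.05 for Gm5345, Gm16348 and Enpp6, with log2 fold changes of 6.29, 8.94 and 1.99, and for 1.33% of its genes. Pcm1 differed by 0.48 ± 0.27 and Mtus1 by 0.25 ± 0.15, neither called, and by 0.12 ± 0.13 and 0.05 ± 0.09 without the 5 libraries of high mitochondrial share.

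With GW3965, Gm5345 averaged 64.1 ± 34.8 normalized counts in libraries labelled Gata4LKO and 20.4 ± 22.7 in control libraries (SD, n = 5 and 4). The log2 difference was 2.69 ± 0.81, and that of Gm16348 3.60 ± 1.14. The control GW3965 group held libraries on both sides of the gap, and the groups overlapped for all 10 genes, where 0.822% of all genes did not overlap and were higher and 1.14% lower. No member was called, with 0.0598% of all genes tested called. By DESeq2 on the recovered reads the differences were smaller, 1.67 for Gm5345 and 1.07 for Gm16348 (adjusted p = 0.752 and 0.998, and 0.164 to 0.883 and 0.0843 to 1 over the alternatives). Of the 11 marker lists, that of stellate cells and fibroblasts did not overlap, at 4146 to 6056 summed normalized counts in libraries labelled Gata4LKO and 3272 to 3865 in control libraries, and its part was not tested. Fgl1 averaged 8109 ± 2853 in libraries labelled Gata4LKO and 4782 ± 2147 in control libraries, a log2 difference of 0.84 ± 0.35 (limma adjusted p = 0.693).

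In control libraries, Gm5345 averaged 20.4 ± 22.7 normalized counts with GW3965 and 49.8 ± 14.8 with vehicle, a log2 difference of -2.47 ± 0.86 (limma adjusted p = 0.302). With DESeq2 on the recovered reads it was -1.30 (adjusted p = 0.766), as in the authors' deposited table, and over all alternatives it lay between -3.26 and -1.30. The difference of Gm16348 was -3.03 ± 1.20. No member was called, where 0.792% of all genes tested were called (0.187% lower), nor in the authors' deposited table, where 1.62% of genes were, and the groups overlapped for all 10 genes, where 3.13% of all genes did not overlap and were higher and 2.71% lower. The value for Gm16348 rested on the fit and on 1 library: it was -0.57 with DESeq2 on the recovered reads, and -4.48 (limma adjusted p = 0.0341) without control GW3965 library 13, which had the highest level of all 17. Its adjusted p ran up to 0.977 over the alternatives. The summed level of the 11 markers of Kupffer cells and macrophages was 4239 to 7071 with GW3965 and 2429 to 3385 with vehicle. Of 3 pancreas markers only Cela1 was among the genes counted, at 190 to 264 and 302 to 354, so it cannot stand for that list. Their part in these differences was not tested. Fgl1 averaged 4782 ± 2147 with GW3965 and 7822 ± 2356 with vehicle, which differed by -0.80 ± 0.37 on the log2 scale (limma adjusted p = 0.539).

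The interaction of genotype and treatment is the GW3965 against vehicle difference in libraries labelled Gata4LKO less that in control libraries. It was 7.54 ± 1.18 for Gm5345 and 9.72 ± 1.65 for Gm16348. Gm5345 was called (limma adjusted p = 0.0374), 1 of 10 members, where 0.0149% of all genes tested were called. Gm16348 was not (0.0659), but was called without control GW3965 library 13 (0.00142) and with DESeq2 on the recovered reads (0.00999). The interaction was 2.85 ± 0.70 for Enpp6, 0.78 ± 0.22 for Aga and 0.61 ± 0.20 for Asah1. The call of Gm5345 was lost with edgeR on the recovered reads (adjusted p = 0.067), without the 5 libraries of high mitochondrial share (0.0687), and without 1 library in 14 of 17 cases (0.0645 to 0.148). It remained without Gata4LKO GW3965 library 17 and without control GW3965 library 12 or 13. The authors' deposited table for the interaction gives log2 fold changes of 7.59, 9.51 and 2.59 for Gm5345, Gm16348 and Enpp6, with adjusted p-values of 0.000472, 0.0102 and 0.0194, and 0.190% of its genes below 0.05.

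**Figure D5:**
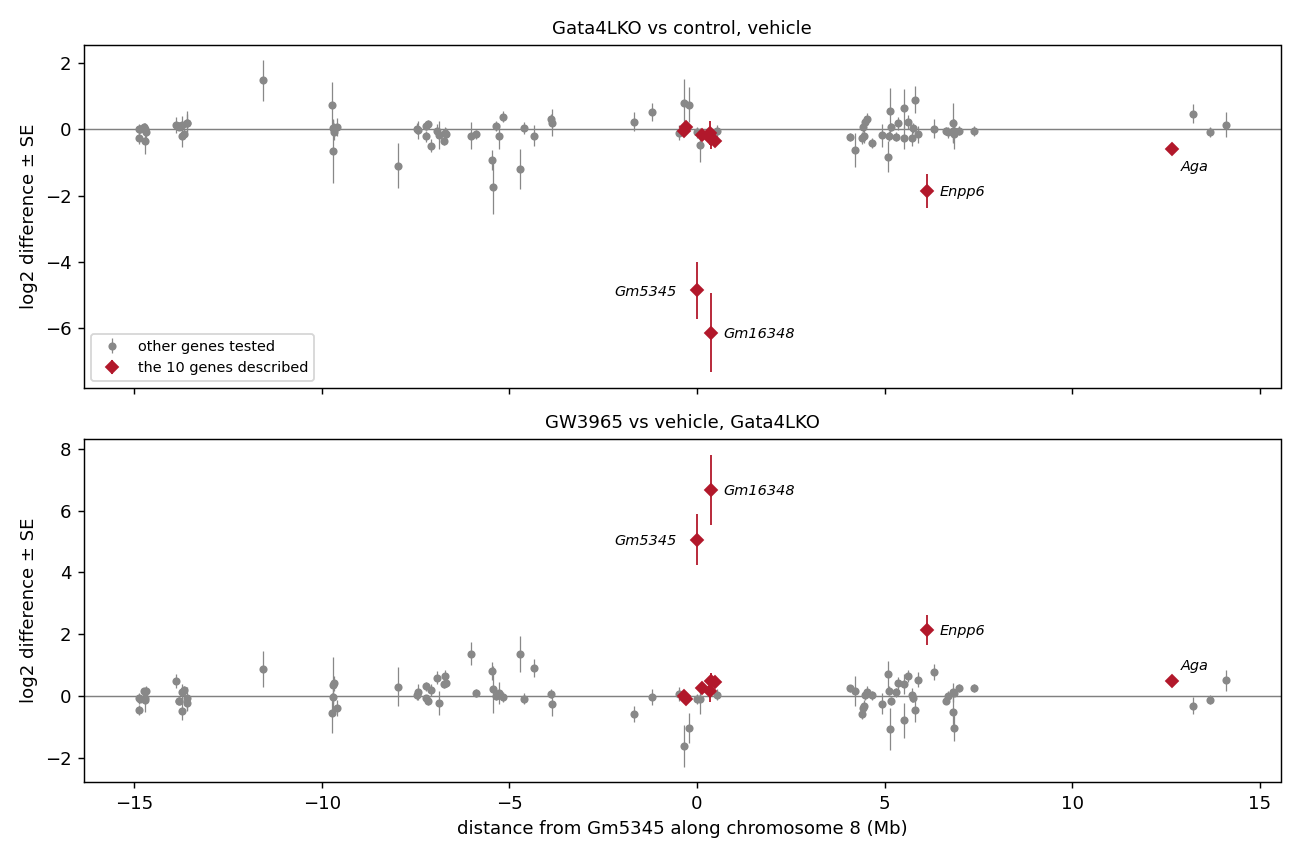
Log2 difference ± SE (y axis) of each gene that passed the filter within 15 Mb of Gm5345, by distance along chromosome 8 (x axis, Mb), for Gata4LKO against control with vehicle (top) and GW3965 against vehicle in Gata4LKO (bottom). Red diamonds are the 10 genes described and grey points other genes. Gm5345, Gm16348 and Enpp6 have the 3 largest absolute differences of the 97 genes in both panels, and Slc7a2, the nearest other gene, lies near 0 in both.

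Other genes close to Gm5345 were examined in the same fits. Within 5 Mb of Gm5345, 30 genes passed the filter, 8 of the 10 described and 22 others. The nearest of the others, Slc7a2, a transporter of cationic amino acids 0.00737 Mb away, differed by -0.10 ± 0.17 on the log2 scale between libraries labelled Gata4LKO and control with vehicle, and by -0.09 ± 0.16 between GW3965 and vehicle in those labelled Gata4LKO. None of the 22 was called in the comparison of genotypes with either treatment, in that of GW3965 with vehicle in libraries labelled Gata4LKO, or in the interaction. F11, which encodes coagulation factor XI and lies 4.39 Mb away, was the single one called in control libraries, at -0.81 ± 0.18 for GW3965 against vehicle (limma adjusted p = 0.0492). F11 was called under 4 of the 14 alternatives (adjusted p from 0.00507 to 0.161), and of the 8 fits that left out a library it was called in the one without control GW3965 library 13. For GW3965 against vehicle in libraries labelled Gata4LKO, the median log2 difference of the 22 was -0.06, against -0.00 over all 13379 genes. In the same comparison 8 of the 22 (36.4%) had an unadjusted p below 0.05, 3 higher and 5 lower, against 12% of all genes. That share was 9.09%, against 6.15% of all genes, for the genotypes with vehicle, and 13.6%, against 6.47%, for the genotypes with GW3965. It was 9.09%, against 8.96%, for GW3965 and vehicle in control libraries, and 9.09%, against 4.65%, for the interaction. Among the 97 genes within 15 Mb, Gm16348, Gm5345 and Enpp6 had the 3 largest absolute differences in the comparison of genotypes with vehicle and in that of treatments in libraries labelled Gata4LKO. The members were chosen for this, and Aga and Asah1 ranked 17 and 27 in the first and 26 and 29 in the second.

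Genes that share a pathway or family with the 8 protein-coding members were examined for context. Besides the members, 74 such genes were tested. Of the 22 genes of ceramide and sphingosine metabolism tested, Asah1 among them, none was called in any comparison. For GW3965 against vehicle in libraries labelled Gata4LKO they lay between -0.76 ± 0.22 for Gba2, a glucosylceramidase, and 0.56 ± 0.32 for Smpd3, a sphingomyelinase (limma adjusted p = 0.166 and 0.475). Nor was any of 14 enzymes of lysosomal glycoprotein breakdown, where the median difference in that comparison was -0.17, opposite in sign to the 0.48 ± 0.15 of Aga. The other 5 members of the Enpp family tested lay between -0.31 ± 0.12 (Enpp5) and -0.02 ± 0.14 (Enpp4), against 2.14 ± 0.48 for Enpp6. No gene of the 8 of ESCRT-I, the 15 of CCR4-NOT and its partners, the 10 of centriolar satellites or the 2 of the Mtus family was called in any comparison. Fgl2, which encodes another fibrinogen-like protein, was the single one called: it was higher with GW3965 than with vehicle in control libraries by 1.39 ± 0.29 (limma adjusted p = 0.0346), where Fgl1 differed by -0.80 ± 0.37. The call of Fgl2 held under 7 of 14 alternatives (adjusted p from 0.0011 to 0.115) and was lost without control GW3965 library 9, 10 or 12, without control vehicle library 3 or 4, with no filter on low values and without the 5 libraries of high mitochondrial share.

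To find genes with a like pattern, each library was put above or below the midpoint of a gene's own log2 range, and the number of the 17 libraries on the same side as for Gm5345 was counted. Over the 8598 genes with a log2 range of at least 1, 5.48% of them on chromosome 8, Gm16348 was on the same side in all 17 libraries and no gene outside the 10 was. Among the members Aga was on the same side in 15, Enpp6 in 14, Fgl1 in 10 and Pcm1 in 9 libraries, and the other 4 had too small a range. Of the 10 most alike other genes, 5 were on the same side in 16 libraries: Zfp691 and Zbtb16, which encode zinc finger proteins, Ncoa4, the receptor for autophagy of ferritin, Gm37163, and Timp3, an inhibitor of metalloproteinases. The other 5, in 15 libraries, were Psma8, Lgalsl, Cdkn1a, Sult1d1 and Dnaja4. None of these 10 was on chromosome 8 when all 17 libraries were used. Zbtb16 had 488 to 1463 normalized counts in Gata4LKO GW3965 libraries and 224 to 518 in Gata4LKO vehicle libraries. It had 208, 200.0, 796 and 1444 in control GW3965 libraries 9, 10, 12 and 13, and 1296 to 1673 in control vehicle libraries. Its values were low where those of Gm5345 were, but Gata4LKO GW3965 library 14, the highest in Gm5345, had 488. The genes most opposite were Pik3ap1, on the same side in 1 library, and D630039A03Rik and Armc7, in 2 each. The count is a description over libraries that share their group and depth, and it depended on the libraries: without the 5 of high mitochondrial share, 2 of the 10 genes remained, Zbtb16 and Lgalsl. Over those 12 libraries 1 gene outside the members, Rfxank (chr8:70130794-70139154), was on the same side in all, as Gm16348 was, and 25 others were in 11. Of the 10 most alike, 2 were then on chromosome 8, Rfxank and Arrdc2 (chr8:70835129-70839720).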

How the data were processed

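The deposited table holds a normalized signal, read counts divided by 1 size factor per library by the authors, as the values show. Reads were recovered as whole numbers, with 100% of values off by under 0.05 read (at most 0.000523). Per the file headers, the authors' comparison tables hold log2 fold changes with raw and adjusted p-values. STAR 2.6.0c, FastQC, DESeq2 and the mm10 build are named, per the submitters' processing notes. Counter, annotation and strand: not given in the sources used here. Per the labels' protocols, the KAPA mRNA Hyperprep kit was used.

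The test was limma 3.58.1 (trend, R 4.3.3) on log2(normalized count + 1), all 17 libraries in 1 fit with 1 coefficient per group, for genes at 10 or more in at least 4 libraries (13379 of 24676), with Benjamini-Hochberg adjustment. It was tested on simulated counts in which the spread of a gene was the same in every group. The spread of Gm5345 and Gm16348 was not, so that test does not cover them. Alternatives used edgeR 4.0.16 and DESeq2 1.42.0 on recovered reads, TMM scaling, another pseudocount or no filter, or fewer libraries. All columns were matched to samples. Replicates differed by more than sampling noise in all 28 pairs within groups (chi-square per degree of freedom 14.6 to 346). Intervals and floors of 3 reads cover counting error only.

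Members and lists were chosen with earlier results of these data known. Besides the members, the genes named are the 10 most alike and 3 most opposite in pattern, called genes within 5 Mb, and called genes of the lists. Gapdh, Gata4, Slc7a2, Gba2, Smpd3, Enpp4, Enpp5, Cela1, Rfxank and Arrdc2, and the copies of Gm5345, were named after their values were seen. Transcripts were aligned with BLAST+ 2.17.0.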

Additional observations from a re-analysis of the deposited data

Results flagged for a closer look

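Of 40 groups of values (10 genes in 4 groups), 3 held a library far from the others of its group, and chance flags about 1 in 20 groups. Cnot7 had 659 normalized counts in Gata4LKO GW3965 library 17, and its gap to the next value was 0.873 of the group's range. Vps37a had 2066 in the same library, with a gap of 0.717 of the range. That library had the highest mitochondrial share (32.6%) and the lowest depth (11.8 M reads), and their part was not tested. Gm16348 had 0.667 in Gata4LKO vehicle library 5, a single read against 0 in the other libraries of the group. The response of Gm5345 to GW3965 differed between the genotypes by an interaction of 7.54 on the log2 scale (limma adjusted p = 0.0374, and 0.000424 to 0.148 over the alternatives). The levels of Gm5345 per library were among the values that chose the genes, so this is a description and no independent test, and the call was lost in 14 of the 17 fits that left out 1 library. Gm5345 was higher with GW3965 in all 5 libraries labelled Gata4LKO than in the 4 with vehicle, and the 4 control GW3965 libraries overlapped the 4 with vehicle.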

How the results depend on the processing

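No paired analysis was possible because the replicate numbers run from 1 to 18 over the series and no number is shared between groups. Counts of calls are given in a fixed order: the comparison of genotypes under vehicle, the same under GW3965, that of treatments in control libraries, the same in Gata4LKO libraries, and the interaction. DESeq2 on recovered reads called 50, 80, 228, 195 and 26 genes over the whole table, against 2, 8, 106, 33 and 2 by limma, and 3, 0, 0, 3 and 3 members, against 0, 0, 0, 2 and 1 by limma. Within 5 Mb of Gm5345 it called 2, 0, 2, 2 and 2 genes, against 0, 0, 1, 2 and 1. With edgeR the second comparison had 5 calls, the interaction had 0 (no member and no gene within 5 Mb) and control libraries had 0 within 5 Mb. Limma called 2 genes for the interaction, and 622 genes, 4.65% of all tested, had an unadjusted limma p below 0.05 there. With no filter on low values, 57 genes were called in control libraries and 0 within 5 Mb. Without the libraries of high mitochondrial share, 14 genes were called with vehicle (2 members, 2 within 5 Mb), 64 in control libraries (0 within 5 Mb) and 1 for the interaction (0 members, 0 within 5 Mb). The 2 Mb window held 0 calls in control libraries. The cause of these shifts was not tested.

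Leaving out 1 library gave 0 to 3, 2 to 21, 22 to 109, 6 to 78 and 0 to 9 calls over the whole table. Members called were 0, 0, 0 to 1, 0 to 2 and 0 to 2, and genes within 5 Mb 0, 0, 0 to 2, 0 to 2 and 0 to 2. Of 810 recomputed log2 differences of the members, 799 moved by less than the residual SD, 11 by more, and no called one changed sign. That SD was 1.37 for Gm5345 and 1.95 for Gm16348, a wide limit. The shift of Gm16348 in control libraries from -3.03 to -4.48 without library 13 fell under it. Most recomputed fits also share nearly all their libraries with the main fit, so the count is no measure of stability. Depth limits Gm5345 and Gm16348 in their low libraries, which hold 0 to 2 reads.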
